A study of Glycine max with 6 samples.

Results

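Soybean genes of the purple acid phosphatase (PAP) family were followed in root nodules under high and low phosphorus. The 7 genes described are GmPAP9, GmPAP13, GmPAP20, GmPAP21, GmPAP31, GmPAP32 and a gene matched to a PAP23-like protein. They were taken by gene ID from the 39712 genes listed in at least 1 library, and all 7 were found. They belong to 17 PAP genes named in the study, and they were listed because their transcripts rose under low phosphorus. Their difference between treatments is therefore given as a description without a test.

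Plants of genotype YC03-3, inoculated with strain USDA110 of the rhizobium, received nutrient solution with KH2PO4 at 500 (HP) or 25 (LP). The study's methods give both concentrations in μM, whereas the sample labels state mM. HP and LP plants shared genotype, rhizobium strain, the other listed salts of the nutrient solution and harvest on day 25. Potassium supply differed along with KH2PO4, since no compensating potassium salt is listed. There were 3 libraries per treatment, made from pools of nodules over 3 mm of 2 plants, so p-values measure the spread between such pools.

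PAPs are metal-containing acid phosphatases that release inorganic phosphate (Pi) from phosphate esters. Plant genomes carry many PAP genes, and a number of them are known to be transcribed more strongly when Pi is scarce. Some PAPs are secreted and act on organic phosphorus outside the cell, while others recycle phosphate within it. In nodules, bacteria of the symbiosis fix nitrogen at a high cost of ATP, and nodules are known as strong sinks for phosphorus.

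Levels are given as FPKM, a fragment number divided by gene length and library total. The totals behind the FPKM values, recovered from the values themselves, lay between 17716117 and 18909026 fragments per library. Log2 values had Pearson correlations of 0.966 to 0.977 within a treatment and of 0.911 to 0.936 between treatments. The tested genes were the 31181 that reached 0.5 FPKM in no fewer than 3 libraries. With limma on log2(FPKM + 0.1), 1041 of them (3.34%) were called higher and 1370 (4.39%) lower at LP, where a call needed an adjusted p up to 0.05 and a log2 difference of 1 or more. The median log2 difference over these genes was -0.18. After median-of-ratios scaling, which moved that median up by 0.18, 1404 genes were higher and 676 lower. RNA of whole nodules was measured, in which fewer cells of a type and less RNA per cell cannot be told apart. The levels of cell type markers were not analysed here.

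All 7 PAP genes were higher in every LP library than in any HP library. At HP, GmPAP13, GmPAP9 and GmPAP20 lay between 5.21 and 36.2 FPKM, and the other 4 genes between 0 and 0.503 FPKM. Of these, GmPAP21 and GmPAP31 were higher in the mean, but the lowest GmPAP31 value (0.0718 FPKM) was under the highest of GmPAP32 (0.0802 FPKM). Over all genes tested, 11.1% had every LP value above every HP value, and 6 of the 7 genes met the thresholds of a call against 3.34% of all genes tested. Both counts follow from the way the genes were picked. GmPAP32 did not reach the FPKM minimum and was not tested. The PAP23-like gene and GmPAP31 passed it through their LP libraries alone, and GmPAP21 through LP and 1 HP library.

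**Figure D1:**
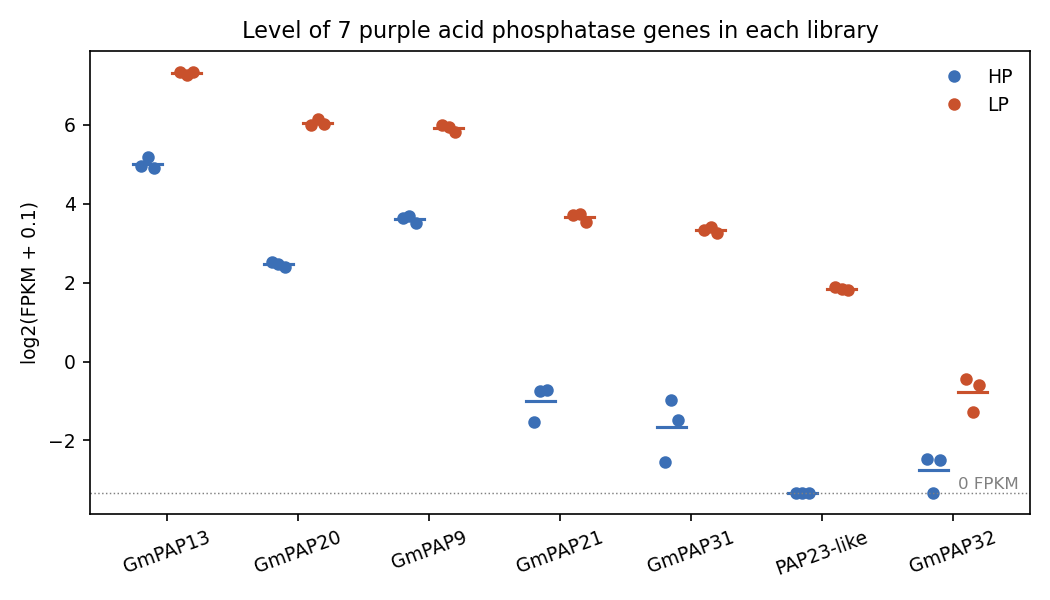
Levels of the 7 PAP genes as log2(FPKM + 0.1), with one point per library (blue for HP, red for LP, 3 each), a bar at the mean, and a dotted line at 0 FPKM. The treatments are separate for each gene, the PAP23-like gene is on the 0 line in all 3 HP libraries, and GmPAP20 passes GmPAP9 from HP to LP.

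The first pair consists of GmPAP9 and GmPAP13, which the study's phylogeny places with Arabidopsis AtPAP17, a small PAP known to be induced by Pi starvation. GmPAP13 (Glyma.08G056400) lies on the minus strand of chromosome 8 at 4330055 to 4332640 in the Wm82.a2.v1 assembly. It was at 31.3, 36.2 and 29.8 FPKM in the HP libraries and at 163, 154 and 162 FPKM in the LP libraries. GmPAP13 had the highest level of the 7 genes in all 6 libraries. Its mean increased from 32.4 ± 3.38 to 160 ± 5.26 FPKM (SD, n = 3 each), a ratio of 4.92 and a log2 difference of 2.30 (SE 0.089).

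GmPAP9 (Glyma.05G247900; chromosome 5, 42109945 to 42112794, minus strand) was at 12.4, 12.7 and 11.4 FPKM at HP. At LP, its libraries gave 63.6, 61.5 and 56.2 FPKM. The lowest LP value was 4.42 times the highest HP value. The means were 12.2 ± 0.710 and 60.5 ± 3.79 FPKM (SD, n = 3 each), which is a ratio of 4.97 and a log2 difference of 2.30 (SE 0.072).

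GmPAP9 and GmPAP13 thus differed in level but hardly in response. Within a library, GmPAP13 was 2.52, 2.85 and 2.62 times the level of GmPAP9 at HP, and 2.56, 2.50 and 2.89 times at LP. Both sets of ratios overlapped. The log2 differences of the 2 genes were apart by -0.0025 with an SE of 0.115, GmPAP13 minus GmPAP9. Related gene copies can share reads, and the identity between these transcripts was not analysed here.

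GmPAP20 (Glyma.09G229200; chromosome 9, 45317709 to 45321504, minus strand) is placed with AtPAP10 and AtPAP12, which in Arabidopsis are secreted acid phosphatases of Pi-starved roots. Its HP libraries were at 5.63, 5.46 and 5.21 FPKM, below GmPAP9 in each of them. Its LP libraries were at 64.1, 71.0 and 64.7 FPKM, above GmPAP9 in each of them. The mean moved from 5.43 ± 0.210 to 66.6 ± 3.81 FPKM (SD, n = 3 each), a ratio of 12.3 and a log2 difference of 3.59 (SE 0.057).

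The crossing of GmPAP20 and GmPAP9 is visible in their ratio. GmPAP20 had 0.453, 0.429 and 0.458 of the level of GmPAP9 in the HP libraries, and 1.01, 1.15 and 1.15 of it in the LP libraries. The LP levels of the 2 genes were close, with 64.1 against 63.6 FPKM in LP replicate 1. The log2 difference of GmPAP20 exceeded that of GmPAP9 by 1.29 (SE 0.092).

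GmPAP21, GmPAP31 and GmPAP32 are placed with AtPAP15 and AtPAP23, of which AtPAP15 is known in Arabidopsis for phytase activity. GmPAP21 is itself known from soybean, where its overexpression was found to hold back nodule growth. GmPAP21 (Glyma.10G071000; chromosome 10, 7144985 to 7148990, minus strand) was at 0.243, 0.493 and 0.503 FPKM at HP and at 13.04, 13.3 and 11.5 FPKM at LP. HP replicate 1 was the lowest of the HP libraries, with no overlap between treatments. The means were 0.413 ± 0.147 and 12.6 ± 0.934 FPKM (SD, n = 3 each), with a log2 difference of 4.68 (SE 0.27).

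At HP, the GmPAP21 values rested on few fragments. The smallest whole numbers that fit the FPKM values were 8, 16 and 17 at HP against 418, 451 and 395 at LP. The summed fragments per total gave a ratio of 30.5, with a 95% interval of 22.3 to 42.7 that covers counting error only.

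GmPAP31 (Glyma.19G026600; chromosome 19, 3303658 to 3312907, minus strand) was the most variable of these genes at HP relative to its mean except for GmPAP32, with 0.0718, 0.413 and 0.256 FPKM. Its LP libraries were closely grouped at 9.95, 10.5 and 9.55 FPKM. The mean went from 0.247 ± 0.171 to 10.02 ± 0.496 FPKM (SD, n = 3 each), and the log2 difference was 5.002 (SE 0.47). The smallest fitting fragment numbers were 3, 17 and 11 in HP libraries and 405, 455 and 415 in LP libraries, and their sums per total had a ratio of 40.7 (counting interval at 95%, 28.5 to 60.1).

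The HP ranges of GmPAP21 and GmPAP31 overlapped, although GmPAP21 was the higher within each HP library. At LP, the lowest GmPAP21 value of 11.5 FPKM lay above the highest GmPAP31 value of 10.5 FPKM. Within LP libraries, GmPAP21 was 1.31, 1.26 and 1.21 times the level of GmPAP31, compared to 3.39, 1.20 and 1.96 times at HP. Their log2 differences were apart by -0.33 (SE 0.54), GmPAP21 minus GmPAP31. This SE treats the genes as independent, although both were measured in the same libraries. With a constant of 1 the order was the reverse, 3.27 for GmPAP21 against 3.15 for GmPAP31.

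GmPAP32 (Glyma.19G193900; chromosome 19, 45144855 to 45148565, minus strand) was the weakest at LP. It was at 0.0802, 0 and 0.0781 FPKM in HP libraries, equal to 3, 0 and 3 fragments. In LP libraries it was at 0.631, 0.311 and 0.566 FPKM, equal to 23, 12 and 22 fragments. LP replicate 2 was the lowest of the LP libraries but still above all HP libraries.

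Summed over libraries, GmPAP32 fragments per total were 9.40 times as frequent at LP (95% counting interval 4.06 to 26.7). The log2 difference with the added 0.1 was 1.99 (SE 0.38), and that of the fragment ratio without a constant was 3.23. Of the 7 genes, GmPAP32 was the one with the lowest LP level and, on the scale with the constant, with the smallest log2 difference.

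The PAP23-like gene (Glyma.13G060200; chromosome 13, 15749985 to 15754961, plus strand) had no fragment in any HP library. Its LP libraries gave 3.61, 3.46 and 3.44 FPKM, with a mean of 3.50 ± 0.0904 (SD, n = 3). Against a floor of 3 fragments summed over HP libraries, which corresponds to 0.0636 FPKM, its level was at least 55.1-fold higher at LP. The fitted log2 difference of 5.17 depends on the constant and was 2.17 with a constant of 1 and 8.46 with 0.01. The gene is named from a protein match and has no GmPAP number in the study's list.

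The base level was then set against the size of the LP response. The 3 genes with the highest HP levels, GmPAP13, GmPAP9 and GmPAP20, had ratios of 4.92, 4.97 and 12.3. GmPAP21 and GmPAP31, both under 1 FPKM at HP, had ratios of 30.5 and 40.6. GmPAP32 fell outside this order by its ratio of 9.53, on 6 HP fragments, despite a low HP level. The counting interval of its fragment ratio, 4.06 to 26.7, included the ratios of the 3 genes with the highest HP levels. It overlapped the interval of GmPAP21 (22.3 to 42.7) but not that of GmPAP31 (28.5 to 60.1). Whether GmPAP32 ranked above or below GmPAP13, GmPAP9 and GmPAP20 was thus not resolved. The PAP23-like gene had no HP fragment and no ratio, with a level at least 55.1-fold higher at LP against the floor given above.

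Over the 7 genes, the log2 HP level and the log2 difference had a Spearman coefficient of -0.46 and a Pearson r of -0.55, given as a description, since both hold the same HP values. The sign followed the constant. The Spearman coefficient was -0.79 with 0.01 and 0.43 with 1. With a constant of 1, the log2 difference of the PAP23-like gene fell below those of GmPAP9 and GmPAP13 (2.17 against 2.22 and 2.27), and GmPAP20 (3.39) came above GmPAP21 (3.27) and GmPAP31 (3.15). With 0.01, GmPAP32 (3.51) came above GmPAP9 and GmPAP13 (2.31 and 2.30). For the 6 genes with HP fragments, the log2 difference with 0.1 gave a Spearman coefficient of -0.14, and the ratio of fragments without a constant gave -0.66. Over the 17 named PAP genes the Spearman coefficient was -0.62, and over all genes tested it was -0.09. Both were computed with the constant of 0.1 only, so their dependence on the constant is not known.

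**Figure D2:**
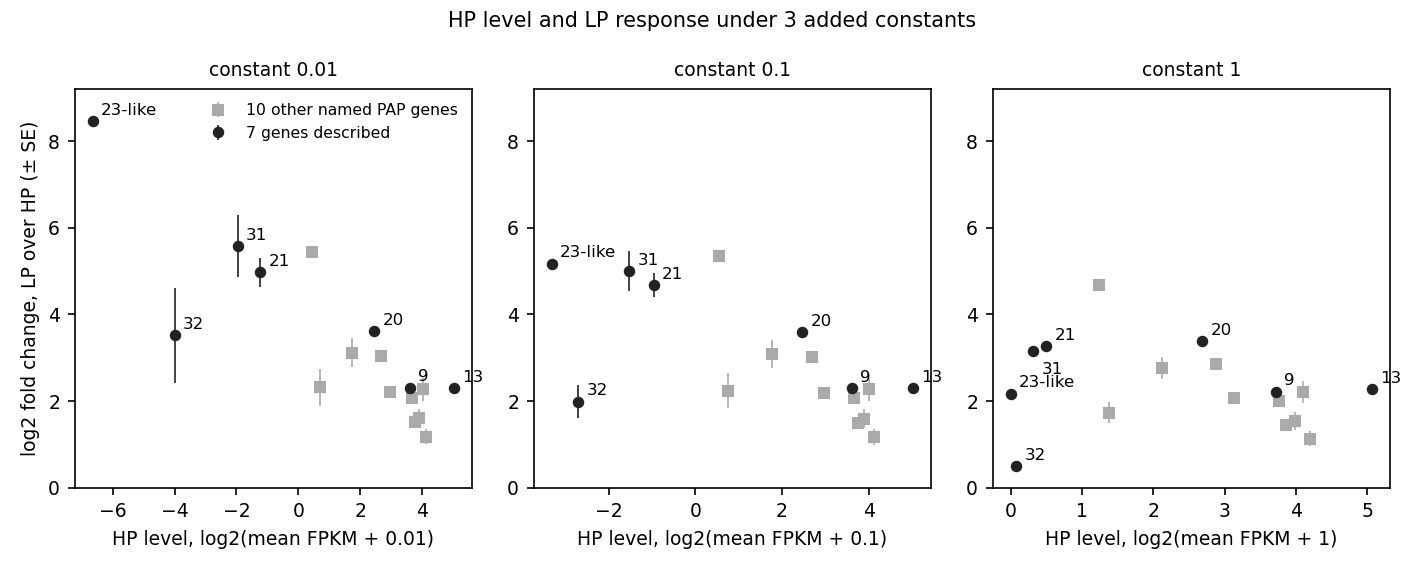
Log2 HP level (x axis) against the log2 difference between LP and HP (y axis, ± SE over 3 libraries each) for the 7 PAP genes (black, labelled by GmPAP number) and the 10 other named PAP genes (grey), with 0.01, 0.1 or 1 added to FPKM. GmPAP9, GmPAP13 and GmPAP20 hardly move, while GmPAP21, GmPAP31, GmPAP32 and the PAP23-like gene drop from left to right, and the Spearman coefficient over the 7 genes passes from -0.79 through -0.46 to 0.43.

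The gain in FPKM was ordered in another way. GmPAP13 gained 127 FPKM, GmPAP20 61.2, GmPAP9 48.3, GmPAP21 12.2, GmPAP31 9.77, the PAP23-like gene 3.50 and GmPAP32 0.450 FPKM. Of the 7 genes, those with a high HP level gained the most, with a Spearman coefficient of 0.93 between HP level and gain. Over the 17 named PAP genes it was 0.62. These are descriptions, since the gain holds the HP values too. The HP and LP levels of the 7 genes were ordered almost alike (Spearman coefficient 0.93, against 0.71 over the 17 genes), with 2 exchanges between HP and LP means. GmPAP20 passed GmPAP9, and the PAP23-like gene passed GmPAP32, although both of the latter were at 0 in HP replicate 2 and were not separate at HP.

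Among the 39712 listed genes, GmPAP13 moved from percentile 92.6 of mean FPKM at HP to 99.2 at LP, and GmPAP9 from 78.3 to 97.0. GmPAP20 moved from percentile 59.3 to 97.3. The low genes GmPAP21 and GmPAP31 went from percentiles 20.1 and 16.0 to 80.7 and 76.2, whereas GmPAP32 reached only 22.8.

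The 10 other PAP genes named in the study were GmPAP1, GmPAP8, GmPAP10, GmPAP11, GmPAP15, GmPAP16, GmPAP17, GmPAP23, GmPAP30 and GmPAP35. All 10 of 10 were called higher at LP and 0 lower with limma, against 3.34% of all genes tested. The list was chosen by the study on these samples, so its direction is not independent evidence. The median log2 difference was 2.22 for these 10 genes, 3.59 for the 7 genes described above and -0.18 for all genes tested.

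In the class of AtPAP17, GmPAP8, GmPAP10, GmPAP15 and GmPAP16 accompanied GmPAP9 and GmPAP13. GmPAP10 rose from 16.1 ± 4.49 to 75.9 ± 6.47 FPKM (log2 difference 2.27, adjusted p = 4.45e-04) and GmPAP15 from 12.6 ± 1.80 to 53.1 ± 5.17 FPKM (2.07, adjusted p = 6.74e-05). GmPAP16 had a log2 difference of 2.19 (adjusted p = 3.85e-05), and GmPAP8, the lowest of the class at HP with 3.33 ± 1.19 FPKM, one of 3.08 (adjusted p = 3.20e-04). The 6 genes of this class therefore lay between 2.07 and 3.08 on the log2 scale.

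In the class of AtPAP10 and AtPAP12, GmPAP11 and GmPAP23 reached LP levels of the same order as GmPAP20, from unequal HP levels. GmPAP11 went from 1.35 ± 0.106 to 58.9 ± 4.10 FPKM (SD, n = 3 each), with a log2 difference of 5.34 (SE 0.11, adjusted p = 2.23e-07). GmPAP23 went from 6.35 ± 0.434 to 52.3 ± 3.59 FPKM, with a log2 difference of 3.02 (SE 0.10, adjusted p = 2.46e-06). With the constant of 0.1, GmPAP11 had the largest log2 difference of the 17 named PAP genes, whereas with 0.01 those of the PAP23-like gene (8.46) and GmPAP31 (5.58) were larger. At HP, GmPAP20 was 0.855, 0.823 and 0.890 of GmPAP23, and at LP 1.33, 1.32 and 1.18 times it.

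GmPAP1, GmPAP17, GmPAP30 and GmPAP35, placed with AtPAP2 and AtPAP9, included the smallest responses. GmPAP30 had the highest HP level of these, 17.3 ± 3.40 FPKM, and a log2 difference of 1.18 (adjusted p = 0.00171), the smallest of the 17 genes with the constant of 0.1. With a constant of 1, GmPAP32 (0.51) was below GmPAP30 (1.13). GmPAP35 and GmPAP17 followed with 1.51 (adjusted p = 1.36e-04) and 1.60 (adjusted p = 9.48e-04). GmPAP1 was low at HP, at 1.59 ± 0.687 FPKM, and had a log2 difference of 2.24 (adjusted p = 0.00282).

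The summed FPKM of the 17 genes was 145 ± 11.2 at HP and 746 ± 25.3 at LP (SD, n = 3 each). The 7 genes summed to 49.7, 55.3 and 47.2 FPKM at HP and to 318, 314 and 308 FPKM at LP. They made up 31.8%, 41.3% and 32.3% of the 17-gene sum in HP libraries and 41.1%, 42.2% and 42.7% in LP libraries. HP replicate 2, in which the 10 other genes had their lowest sum of 78.7 FPKM, overlapped with the LP range.

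**Figure D3:**
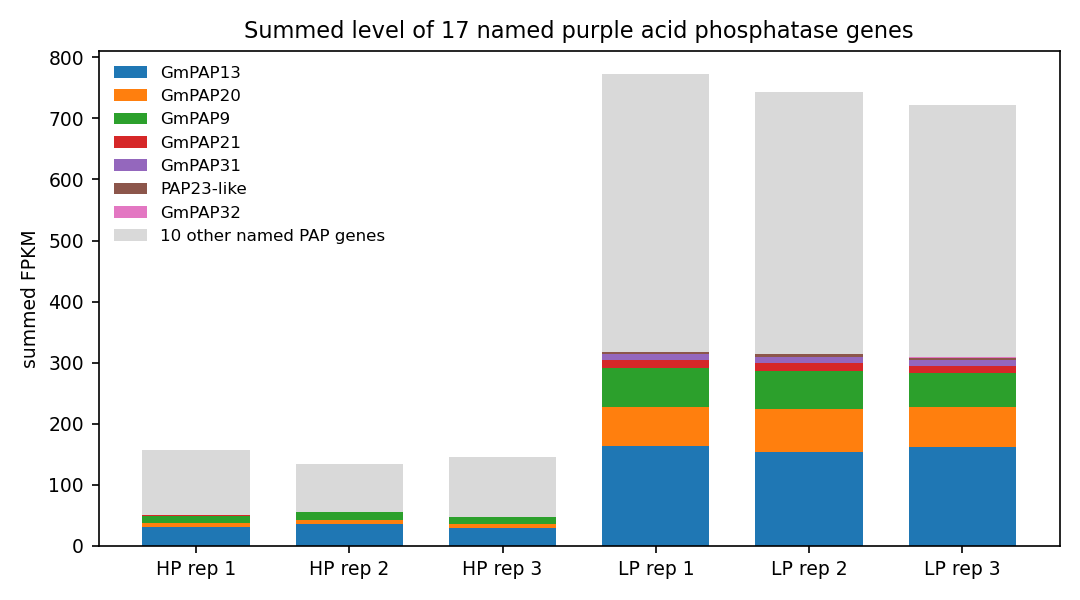
Summed FPKM (y axis) of the 17 named PAP genes in each of the 6 libraries (x axis), stacked by gene for the 7 genes described and in grey for the 10 others. GmPAP13 is the largest coloured segment in each bar, and GmPAP20 widens from a sliver at HP to the size of GmPAP9 at LP.

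Within the sum, GmPAP13 took 22.3% of the mean HP sum and 21.4% of the mean LP sum, and GmPAP9 took 8.37% and 8.10%. The share of GmPAP20 moved from 3.74% to 8.93%. GmPAP21, GmPAP31, the PAP23-like gene and GmPAP32 each stayed under 2% at LP, with 1.69%, 1.34%, 0.469% and 0.0674%. GmPAP13 alone made up 21.2% of the gain of the 17 genes.

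The genes that flank the 7 PAP genes were looked at next, since position was not used to pick them. With 2 genes on either side, 27 flanking genes other than PAP genes were found, and 19 of them were tested. Of these, 2 were called higher and 0 lower by limma, against 7.73% of all genes tested called in either direction, and the median log2 difference was 0.09 with a range of -0.89 to 1.89. This set was chosen by position after the values of the PAP genes were known. Whether 2 calls among 19 genes differ from the share over all genes was not tested. The tested genes next to GmPAP20, GmPAP21, the PAP23-like gene, GmPAP31 and GmPAP32 gave no call. Each of these PAP genes also had a flanking gene under the FPKM minimum, which could not give one. Genes listed in no library were passed over when neighbours were taken.

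**Figure D4:**
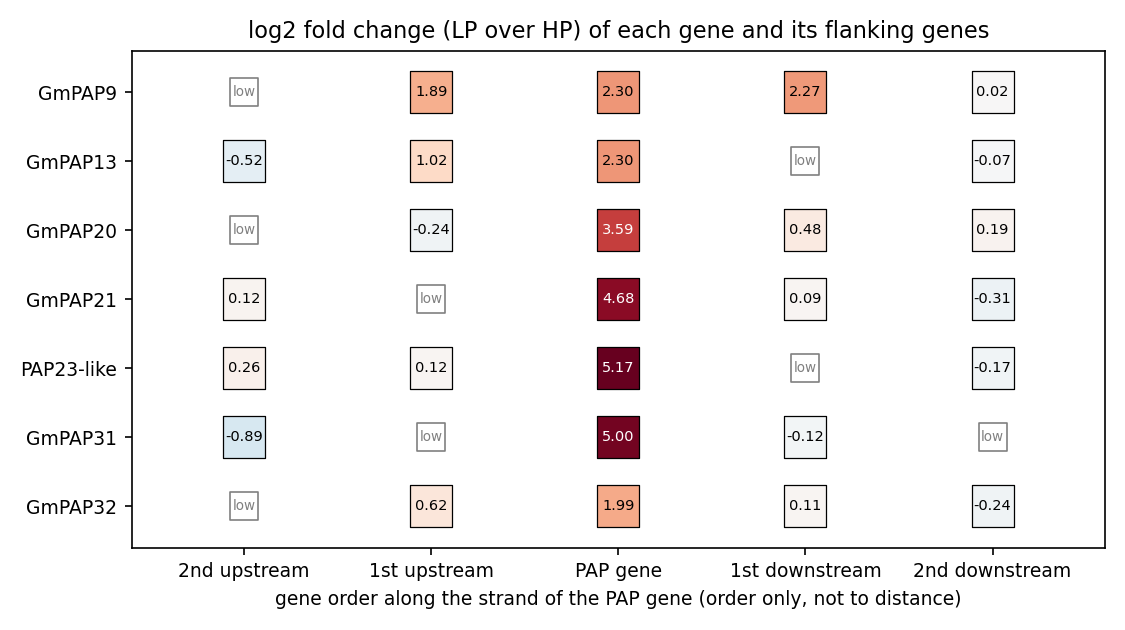
Log2 difference between LP and HP, printed and coloured (red for higher at LP, blue for lower), of each PAP gene (middle column) and the 2 listed genes on either side, in order along the strand of the PAP gene and not to distance. Squares marked "low" are flanking genes under the FPKM minimum. GmPAP32 was under it too but is drawn with its value. Beside GmPAP10, next to GmPAP9, the called neighbours are the genes directly upstream of GmPAP9 (1.89) and of GmPAP13 (1.02).

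The called neighbours sat directly upstream of GmPAP9 and GmPAP13, on the same strand. The flanking genes of GmPAP8, GmPAP15 and GmPAP16, also of the AtPAP17 class, were not examined. Glyma.05G248000 lies 1157 bases upstream of GmPAP9 and rose from 0.997 ± 0.222 to 3.92 ± 0.442 FPKM (SD, n = 3 each), with a log2 difference of 1.89 (SE 0.21, adjusted p = 8.68e-04). Glyma.08G056500 lies 954 bases upstream of GmPAP13 and rose from 26.3 ± 1.58 to 53.5 ± 6.83 FPKM, with a log2 difference of 1.02 (SE 0.12, adjusted p = 0.00101). The call of Glyma.08G056500 stood near the log2 limit of 1 and was lost, at adjusted p values under the threshold, with a constant of 1 (0.99), without HP replicate 2 (0.97) and without LP replicate 1 (0.91), whereas Glyma.05G248000 passed under every alternative (1.30 to 2.07). Both are described as annexin D5 by the protein matches of the study's gene table, annexins being calcium-dependent membrane-binding proteins. For Glyma.05G248000 this description is uncertain. The study also lists this gene ID as a calcium-dependent protein kinase that was lower at LP. That direction is opposite to the rise in the FPKM values used here, and the conflict was not resolved. The downstream sides of GmPAP9 and GmPAP13 were unlike. Downstream of GmPAP9, GmPAP10 followed after 1946 bases on the same strand, whereas the gene 933 bases downstream of GmPAP13, Glyma.08G056300, was at 0 in HP libraries and at 0.108 ± 0.137 FPKM at LP.

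For each of the 7 genes, the tested gene outside the family with the most similar levels was taken by the Euclidean distance of log2 values over the 6 libraries. The closest match was that of GmPAP13 with Glyma.09G223700, a putative glycerol-3-phosphate transporter, at a distance of 0.247. This gene went from 32.2 ± 2.92 to 159 ± 15.4 FPKM (SD, n = 3 each), nearly the levels of GmPAP13. GmPAP9 was closest to Glyma.01G194900, matched to an ADIPOR-like receptor (distance 0.420), and GmPAP20 to Glyma.19G182700 (0.519), for which no description was used here.

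The PAP23-like gene was closest to Glyma.07G163300, of unknown function, which was also at 0 in the HP libraries and at 3.03 ± 0.408 FPKM at LP (distance 0.449). The matches of the other genes with low HP levels were at larger distances. GmPAP21 was closest to the uncharacterized Glyma.17G036800 (0.988), GmPAP31 to Glyma.01G083300, an endonuclease 2-like gene (1.03), and GmPAP32 to Glyma.03G197200, an ARG7-like gene (1.10). These distances are a measure of likeness only, over 6 libraries.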

How the data were processed

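RNA of nodules was sequenced in 3 HP and 3 LP libraries. The authors aligned reads with HISAT2 2.1.0 on a Bowtie2 2.2.3 index of the Wm82.a2.v1 assembly, estimated abundance with Cufflinks, tested with DESeq2 1.6.3, and deposited FPKM values per replicate; use of strand is not given in the sources used here. Genes not listed in a library counted as 0.

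Values were tested as log2(FPKM + 0.1) with limma 3.58.1 in R 4.3.3 (eBayes with trend and robust, statmod 1.5.0), two-sided, with Benjamini-Hochberg adjustment over all genes tested, after a test on simulated data. SEs of the 7 genes are from the 2 sample variances, while the SEs printed for the other PAP genes and the flanking genes are from limma. These are not alike: for GmPAP20, the sample variances gave 0.057 and limma gave 0.093. The SE of a difference between 2 genes combines their SEs as if independent, although both were measured in the same libraries. Fragment numbers were recovered from the FPKM values alone (relative tolerance 1e-06). Of 400 gene lengths, 96.75% came out whole within 0.02. The library total was chosen so that these same lengths came out whole, so this share is not an independent check. The fragment numbers are unique for GmPAP9, GmPAP13, GmPAP20 and GmPAP32, while whole multiples also fit GmPAP21, GmPAP31 and the PAP23-like gene. Intervals of ratios are exact binomial (95%). These intervals, and the floor of the PAP23-like gene, use the smallest fitting numbers. Figures were made with Python 3.11.15 and matplotlib 3.10.9.

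Genes and lists were chosen with earlier results of these data known. Named were the 7 genes, the PAP genes of the study's table, and the most similar gene to each outside the family; flanking genes were added later. Planned lists by protein name, the marker check, promoters and proteins were not analysed here, since the reference names could not be matched to these gene IDs. Alternatives were other constants, minimums, scalings and variance models, a replicate block, and each library left out.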

Additional observations from a re-analysis of the deposited data

How the results depend on the processing

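All 10 other PAP genes were called higher, and 0 lower, under every alternative run. Under the alternatives that can change a difference of means, the log2 differences of the 7 genes were positive in all 75 values. This sign was largely fixed in advance, since every LP value of these genes lay above every HP value. Of the 75 values, 59 moved by less than 1 SD between replicates and 16 by more. Among the 16 were those of GmPAP9, GmPAP13 and GmPAP20 under median-of-ratios scaling (2.49, 2.49 and 3.78, against 2.30, 2.30 and 3.59). The SEs given for these genes do not cover the choice of scaling. The Spearman coefficient of HP level and log2 difference over the 7 genes reversed to 0.43 with a constant of 1, where the PAP23-like gene and GmPAP20 changed rank, and moved to -0.79 with 0.01, where GmPAP32 did. It ranged from -0.46 to -0.36 with each library left out, and was not computed under quantile normalization, where GmPAP32 was outside the fit. The 1370 genes lower at LP became 602 with a constant of 1, 676 with median-of-ratios scaling and 806 with quantile normalization, and the share of higher genes among calls went from 43.2% to 55.5%, 67.5% and 61.7%. The median log2 difference of all genes shifted by 0.18 under median-of-ratios scaling and by 0.13 under quantile normalization, and the cause was not tested. With each library left out, 726 to 1146 genes were higher and 1001 to 1442 lower.

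No pairing by replicate number was seen in the values. Same-numbered deviations correlated at 0.17, -0.02 and -0.15, and all pairs of HP and LP libraries lay between -0.19 and 0.19. Such correlations cannot show whether same-numbered samples were grown or processed together. With the replicate block, 1046 genes were higher, 1288 lower, and all 10 other PAP genes higher. Depth and groups of 3 libraries limit the HP values of GmPAP21, GmPAP31 and GmPAP32. These HP values rest on 41, 31 and 6 fragments in all, with 41 and 31 being the smallest numbers that fit.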
